A study of Homo sapiens with 2 samples.

Results

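Chromosome 11 beyond its first 10 Mb carried 860 of the 20567 H3K4me3 peaks of wild-type HEC-1-B cells and 850 of the 20509 peaks of ZNF143 knockout cells. These peaks were taken by position alone: every peak on chromosome 11 with a start above 10000000 (hg19, counted from 1). The stretch was divided into 5 segments whose 4 edges, at 27200000, 44100000, 77300000 and 96200000, had been chosen by the ratio of the deposited −log10 q-values between the lists. That ratio, and the pileup and q-values behind it, are therefore given as a description of the segments and support nothing further. Segment 1 runs from 10 to about 27 Mb, segment 2 to about 44 Mb, segment 3 to about 77 Mb, segment 4 to about 96 Mb and segment 5 to the last peak, which ended at 134202623.

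HEC-1-B is an established human endometrial adenocarcinoma line, and H3K4me3 was immunoprecipitated from crosslinked, sonicated chromatin and sequenced (ChIP-seq). The groups were wild-type cells (WT) and ZNF143 knockout cells (ZNF143KO), with 1 library each, so no difference given here has a replicate check. The labels name no other allele or treatment and do not say whether the knockout line is 1 clone. Both groups share the parental line, the culture medium and the antibody.

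Trimethylation of lysine 4 on histone H3 marks the nucleosomes around the start sites of active genes, and its peaks are therefore largely promoters. ZNF143 is a zinc-finger transcription factor that binds many promoters and is linked to looping between promoters and distal elements. In ChIP-seq peak lists such as these, more DNA from a stretch of chromosome and more of the mark on the same DNA cannot be told apart.

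Each deposited list gives for every peak a fold over the local rate, a −log10 p-value and a −log10 q-value, all the authors' own. The summit pileup, the number of fragments stacked at the summit, and the local rate, the number of fragments expected there by the peak caller, were recovered from these columns. Summit pileups in the whole lists ran from 7 to 6209 fragments in WT and from 11 to 14245 in ZNF143KO, with medians of 184 and 326. On chromosome 11 beyond 10 Mb the medians were 229.5 and 408.5. In one-to-one pairs, which are peaks with exactly 1 overlapping partner in each direction, the ZNF143KO value was 1.79 times the WT value for −log10 q and 1.86 times for pileup at the median of the 15888 pairs on chromosomes 1 to 22. All ratios below are log2 of ZNF143KO over WT with that median set to 0, so a negative value means a ratio below that of the median autosomal pair, whether or not the pileup itself was lower in ZNF143KO.

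The 708 one-to-one pairs of the 5 segments had a median centred log2 ratio of −log10 q of −0.01, close to the autosomal 0, yet the segments stood on both sides of it. Segment 2 was the lowest and segment 4 the highest. The part of chromosome 11 up to 10 Mb, which lies outside the segments, had a median of −0.52 over 110 pairs, lower than any segment.

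In segment 1, a stretch with 83 WT and 78 ZNF143KO peaks, the median centred log2 ratio of −log10 q was −0.08 (95% interval −0.13 to −0.02, 66 pairs). The ratio was below 0 in 43 of the 66 pairs, against 50% of all autosomal pairs by the centring. Over all pairs the level fell along the segment: the median was 0.06 over the 22 pairs from 10314906 to 13300204, −0.08 over the next 22 and −0.17 over the last 22, which ended at 26987167. Among pairs at or above the autosomal median −log10 q of both lists, the medians were 0.01 (10 pairs), −0.09 (9) and −0.08 (10). These showed no further fall in the last set. The highest WT −log10 q of the segment, 436, belonged to the peak at 14379362 to 14380723, whose pileup was 575 fragments in WT and 1145 in ZNF143KO, a centred log2 pileup ratio of 0.10.

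Segment 2 held 59 WT and 56 ZNF143KO peaks and had a median of −0.19 (−0.25 to −0.14, 51 pairs), with 42 of 51 pairs below 0. The median stayed between −0.22 and −0.19 over its 3 successive sets of 17 pairs, but the pileup medians of these sets were −0.24, −0.26 and −0.16. Among pairs at or above the autosomal median −log10 q of both lists, the −log10 q medians were −0.19 (7 pairs), −0.19 (10) and −0.10 (11). The strongest WT peak, at 43380070 to 43381650, had a −log10 q of 377 in WT and 564 in ZNF143KO, and a pileup of 472 and 749 fragments. Its centred log2 ratio of −log10 q was −0.25, so even the top peak of this segment rose less than the autosomal median pair.

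Segment 3, with 441 WT and 433 ZNF143KO peaks, was the most peak-dense, and its median was −0.02 (−0.06 to 0.02, 358 pairs). Of its pairs 188 of 358 were below 0, which is close to an even split. This level was a mixture: the first 119 pairs had a median of −0.02, the next 119 a median of −0.07, and the last 120, from 66823656 to 77185644, a median of 0.07. The first set was itself uneven, with a fall between 57103808 and 57227897 that is described below. The strongest WT member of all segments lay here, at 62420039 to 62421222, with a −log10 q of 548 in WT and 894 in ZNF143KO and pileups of 548 and 911 fragments.

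In segment 4, which held 74 WT and 73 ZNF143KO peaks, the median was 0.23 (0.13 to 0.34, 57 pairs) and only 16 of 57 pairs were below 0. At its strongest WT peak, 77347898 to 77349202, the pileup was 403 fragments in WT and 856 in ZNF143KO, a centred log2 ratio of 0.19. The median was 0.33 over its first 19 pairs, 0.05 over the next 19 and 0.27 over the last 19. Among pairs at or above the autosomal median −log10 q of both lists, the medians were 0.29 (10 pairs), 0.16 (10) and 0.34 (11).

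Segment 5 held 203 WT and 210 ZNF143KO peaks and was the only segment with more peaks in ZNF143KO. Its median was 0.07 (−0.00 to 0.16, 176 pairs), with 75 of 176 pairs below 0. The segment joined unlike stretches: the first 58 pairs had a median of 0.08, the next 59 one of 0.20, and the last 59, from 120039528 to 134202594, one of −0.08.

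**Figure D1:**
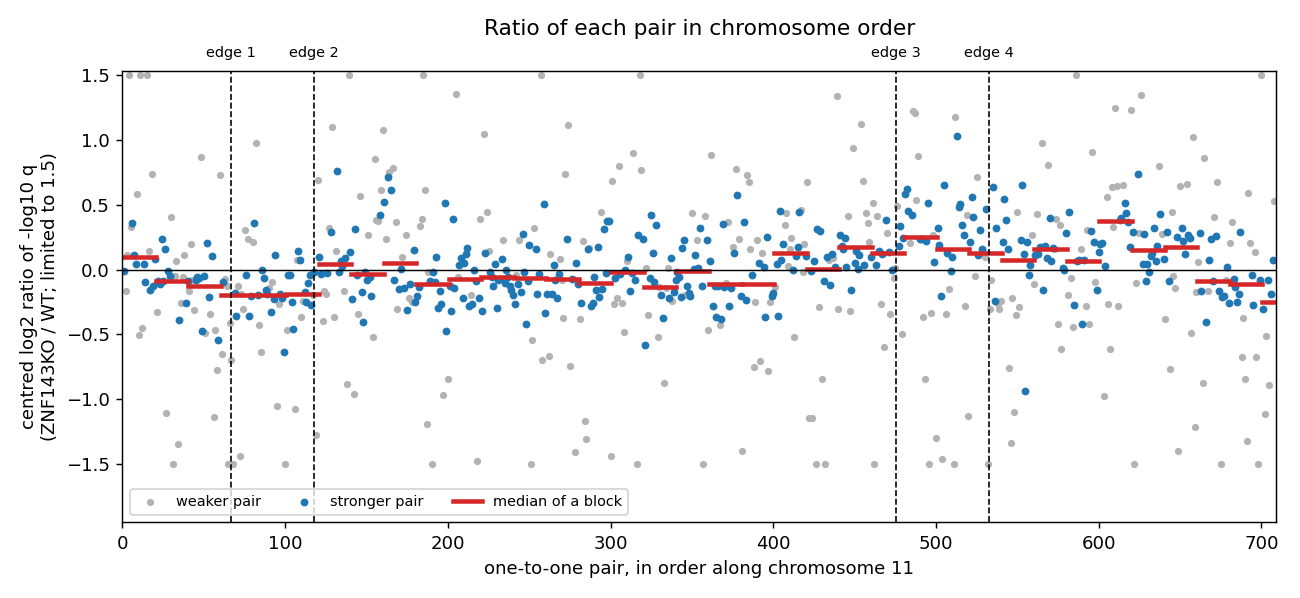
Each point is 1 of the 708 one-to-one pairs in chromosome order (x axis, pair number), with its centred log2 ratio of −log10 q on the y axis, limited to 1.5 on either side; blue points are pairs at or above the autosomal median −log10 q of both lists, grey points the rest, red bars medians of blocks of 20 pairs (the last of 8), and dashed lines the 4 edges. The full-block medians run from −0.20 around edge 1 to 0.37 beyond edge 4, and the last blocks lie below 0 again.

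How large these levels are was read against the rest of the genome by sliding a run of the same number of pairs along the other autosomes. The runs overlap, so their shares describe the genome and are no test. A median at or below that of segment 1 was found in 21.9% of runs of 66 pairs, and one at or below that of segment 2 in 13% of runs of 51 pairs. For segment 3 the share was 30.8% of runs of 358 pairs. A median at or above that of segment 4 was found in 2.84% of runs of 57 pairs, the smallest of the 5 shares, and one at or above that of segment 5 in 23.1% of runs of 176 pairs. Levels of the size seen in segments 1, 2, 3 and 5 were thus common elsewhere. Median levels of whole chromosomes also varied, from −0.34 on chromosome 8 to 0.22 on chromosome 13.

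Counts of pairs past 0.25 in either direction also set segments 2 and 4 apart. Below −0.25 were 20 of 66 pairs in segment 1, 20 of 51 in segment 2, 79 of 358 in segment 3, 12 of 57 in segment 4 and 42 of 176 in segment 5, against 25.4% of autosomal pairs. Only segment 2, at 39.2%, and segment 1, at 30.3%, lay above that background. Above 0.25 were 10, 3, 82, 26 and 58 pairs in the same order, against 22.8% of autosomal pairs. Segment 4 had 45.6% and segment 5 33.0% of its pairs there, while segment 2 had 5.88%.

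The recovered summit pileup, which enters the q-value and is not independent of it, followed the same order. Its median centred log2 ratio was −0.10 in segment 1, −0.23 in segment 2, −0.01 in segment 3, 0.26 in segment 4 and 0.09 in segment 5. Pileup ratios below −0.25 were found in 19, 22, 45, 8 and 30 pairs, against 21% of autosomal pairs, and ratios above 0.25 in 8, 3, 66, 29 and 53 pairs, against 19.5%. The local rate moved as well. Among pairs whose rate was at least 2 times the lowest rate of the list in both lists, its median centred log2 ratio was −0.14 (51 pairs), −0.31 (42), −0.05 (301), 0.28 (41) and 0.10 (133), against −0.04 over such pairs on the autosomes.

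The fold over the local rate did not follow these levels. Its median centred log2 ratio was 0.03 (−0.03 to 0.07) in segment 1, 0.00 (−0.05 to 0.05) in segment 2, −0.02 (−0.03 to 0.00) in segment 3, −0.04 (−0.06 to 0.00) in segment 4 and −0.01 (−0.02 to 0.02) in segment 5. Segment 4 lay above segment 2 by 0.43 in −log10 q and by 0.49 in pileup, and its fold difference from segment 2 was −0.04. In blocks of 20 successive pairs the median log2 ratio of −log10 q ranged over 0.57 and that of fold over 0.12. Pileup had the same sign as −log10 q in 34 of 35 full blocks, the local rate in 30 and fold in 21. The block medians of the local rate used all pairs, also those at the lowest rate of both lists. Such pairs share a fixed centred log2 ratio of about 0.19, which was the median of the block from 75294085 to 77705739. The count of 30 is therefore partly set by the lowest rates. The library from which the peak caller took the local rate is not given in the sources used here, and the part of the local rate in the segment levels was not tested.

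**Figure D2:**
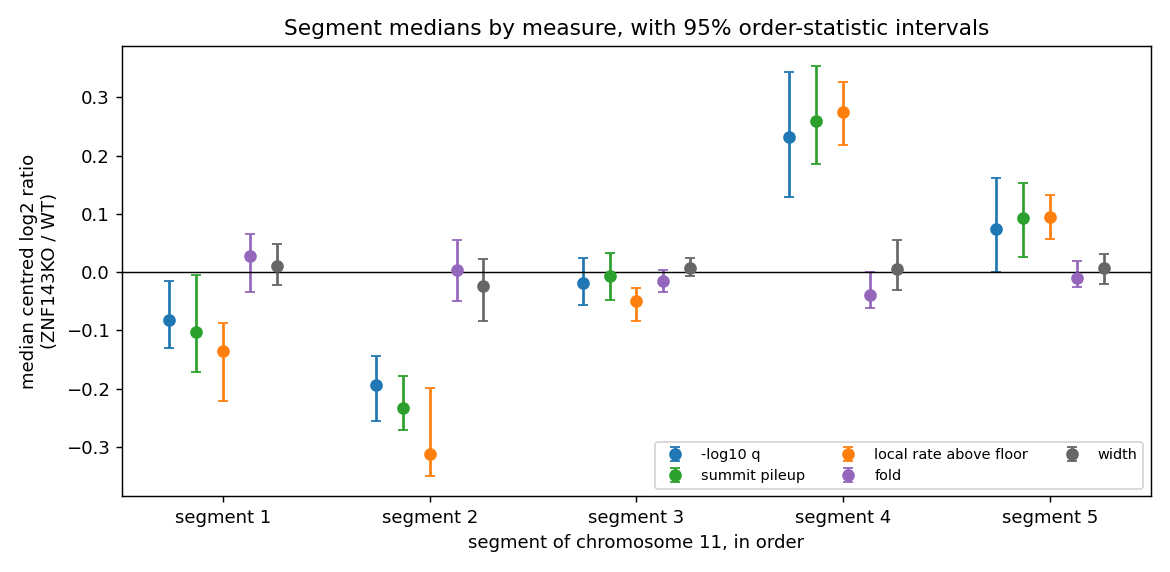
Median centred log2 ratio (y axis) of −log10 q, summit pileup, local rate (pairs above the floor), fold and width in segments 1 to 5 (x axis), with 95% order-statistic intervals over pairs. The first 3 measures move together from segment 2 (−0.19, −0.23 and −0.31) to segment 4 (0.23, 0.26 and 0.28), while fold and width stay within 0.04 of 0.

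Single pairs scattered more widely where −log10 q was low in either list. Pairs at or above the autosomal median −log10 q of both lists (139 in WT, 248 in ZNF143KO) are called stronger pairs here, and the rest weaker pairs. A pair high in WT that fell under 248 in ZNF143KO thus counts as weaker. The pair at 27384190 to 27385131, with 230 in WT and 83.4 in ZNF143KO, is an example. The rule itself therefore limits how far stronger pairs can lie from 0, and their narrower spread is partly set by it. The interquartile range of the centred log2 ratio was 0.15, 0.21, 0.28, 0.29 and 0.35 among the stronger pairs of segments 1 to 5, and 0.67, 0.56, 0.79, 1.23 and 0.88 among the weaker ones. Medians over stronger pairs were −0.07 (29 pairs), −0.18 (28), −0.02 (204), 0.31 (31) and 0.12 (91). Stronger pairs below 0 numbered 20 of 29, 24 of 28, 115 of 204, 2 of 31 and 28 of 91, against 47.3% of stronger autosomal pairs. Among stronger pairs, segments 2 and 4 thus lay mostly on opposite sides of 0.

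The same counts past 0.25 were smaller and more one-sided. The rule leaves out pairs that lay under the median of either list, which lowers these counts. Below −0.25 lay 4, 8, 25, 0 and 8 stronger pairs, against 13.8% of stronger autosomal pairs. Above 0.25 lay 1, 1, 28, 17 and 26, against 13.5%. In segment 4, 54.8% of stronger pairs were above 0.25 and none below −0.25. Among the weaker pairs the segment medians were −0.13, −0.26, 0.04, −0.10 and −0.10, against −0.04 over weaker autosomal pairs. The weaker medians of segments 4 and 5 were thus below 0, but their pairs split almost evenly, with 14 of 26 and 47 of 85 below 0. The pileup medians of these weaker pairs were 0.03 and −0.03.

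**Figure D3:**
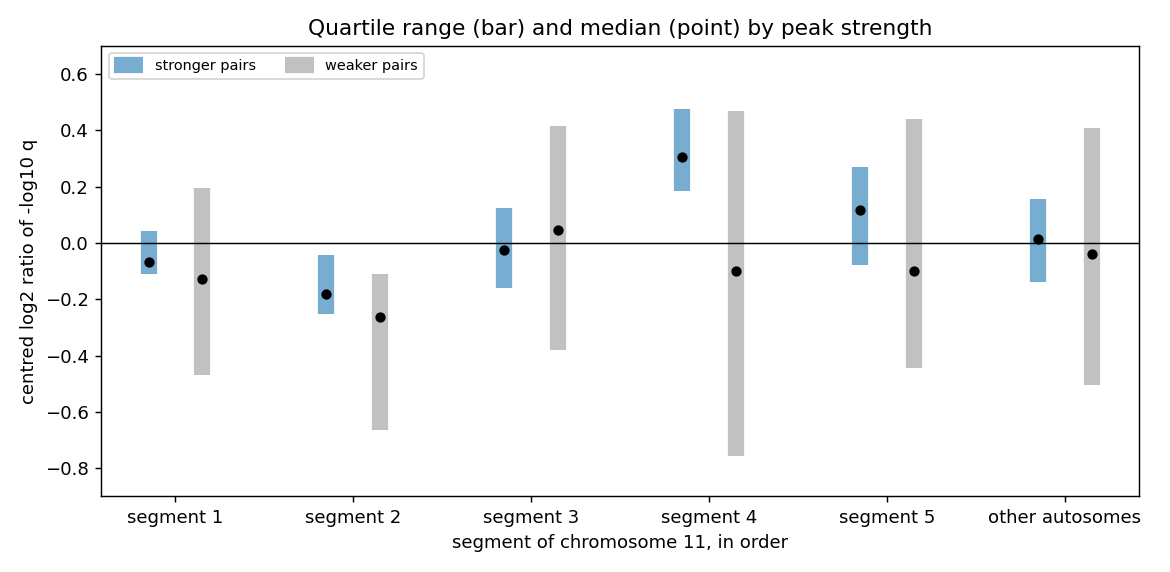
Bars span the lower to the upper quartile of the centred log2 ratio of −log10 q (y axis) and points mark the median, for stronger pairs (blue) and weaker pairs (grey) of each segment and of the other autosomes (x axis). Stronger pairs of segment 4 have their median at 0.31 and a bar wholly above 0, those of segment 2 have theirs at −0.18 and a bar wholly below 0, and the weaker pairs spread far more widely.

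Single peaks show what these levels mean in fragments. The highest stronger pair, at 92930020 to 92931488 in segment 4, had a pileup of 256 fragments in WT and 910 in ZNF143KO and a −log10 q of 209 and 764, a centred log2 ratio of 1.03. The other top pair of that segment, at 86665690 to 86666463, went from 254 to 681 fragments (0.65). Even the lowest stronger pair of segment 4, at 86511080 to 86512133, went from 198 to 320 fragments (−0.20).

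In segment 2 the lowest stronger pair lay at 34938180 to 34938985, with 402 fragments in WT and 526 in ZNF143KO and a centred log2 ratio of −0.63. The next lowest, at 36310269 to 36311337, had 286 and 441 fragments (−0.46). The highest, at 32112384 to 32113870, had 246 and 525 fragments (0.36), so the segment also held a pair well above 0.

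The lowest stronger pair of segment 1, at 20408396 to 20410136, had pileups of 374 and 520 fragments (−0.55). The highest, at 10561919 to 10563128, had 295 and 688 (0.36).

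Segment 3 held the largest pileup of all members in ZNF143KO. The peak, at 51588806 to 51589123, was 318 bp wide in WT and had 553 fragments there and 1620 in ZNF143KO, a centred log2 ratio of 0.71. It lay just before the longest peak-free stretch of WT, from 51591345 to 57078453 (5.49 Mb), which spans the centromere of chromosome 11. The highest stronger pair of segment 3, at 46316609 to 46317544, had 149 fragments in WT and 471 in ZNF143KO (0.76), and the lowest, at 65624328 to 65625655, had 558 and 824 (−0.59).

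The lowest stronger pair of all segments lay in segment 5, at 107435663 to 107436501. Its pileup was 319 fragments in WT and 314 in ZNF143KO, a centred log2 ratio of −0.94. Pairs high in WT alone could lie lower, since a stronger pair also needs a high −log10 q in ZNF143KO. A weaker pair of segment 5, with a −log10 q of 371 in WT and 210 in ZNF143KO, had a ratio of −1.66. The pair at 107435663 was 1 of 2 stronger pairs of the segment, with that at 114270547 to 114272282 (−0.42), that the rule took as its lowest. The highest stronger pair, at 118795448 to 118796680, had 332 and 934 fragments (0.74).

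Edges were next examined for sharpness. For each edge the median of the 20 pairs before it was compared with that of the 20 pairs after it, and the difference was set beside the same difference at 15030 positions along the autosomes, where the median absolute difference was 0.07 and the 95th percentile 0.28. A sharp edge would have a large difference, reached within a few pairs, that stays when only stronger pairs are kept. Only edge 4 passed the 95th percentile over all pairs, and only edge 2 passed it (0.15) among stronger pairs, so none did in both.

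Edge 1 lay between the pairs at 26986485 to 26987167 and 27241054 to 27241732, 254 kb apart. The median was −0.28 before and −0.19 after, a difference of 0.09 in the direction opposite to the drop from segment 1 to segment 2. A difference at least this large occurred at 43.5% of autosomal positions. In stronger pairs the medians were −0.08 before and −0.19 after (−0.10, reached at 14.2% of positions in stronger pairs), so the sign of the difference depended on the pairs kept. Over all pairs with 40 on each side it was −0.087. The pairs beside this edge, −0.41 and −0.69, were both low, and the next one, at 27384190 to 27385131, had a pileup of 230 fragments in WT and 98 in ZNF143KO, a centred log2 ratio of −2.30. That pair was singled out after its values were seen.

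Edge 2 lay between 44087386 to 44088581 and 44117188 to 44118211, 28.6 kb apart. The median rose from −0.23 to 0.00, a difference of 0.23 that 8.38% of autosomal positions reached. Stronger pairs rose from −0.18 to −0.02 (0.16, reached at 4.02% of positions). The largest rise within 5 Mb was 0.43 and lay 36 pairs further on, at 48003526 to 48894264. In stronger pairs it was 0.17 and lay 5 pairs earlier, across the peak-poor stretch from 36616790 to 43333508.

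Edge 3 lay between 77184924 to 77185644 and 77300124 to 77301159, 114 kb apart. The median rose from 0.11 to 0.38, a difference of 0.27 reached at 5.68% of autosomal positions, and no position within 5 Mb had a larger rise. With 40 pairs on each side it was 0.115 (−0.084 to 0.315). Both sides were above 0, with 6 of 20 pairs below 0 before the edge and 3 of 20 after it. In stronger pairs the rise was 0.12, from 0.11 to 0.24 (reached at 8.16% of positions), and the largest within 5 Mb, 0.20, lay 3 pairs further on.

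Edge 4 lay between 96197301 to 96197495 and 96220484 to 96220672, 22.99 kb apart. The median fell from 0.29 to −0.23, a difference of −0.52 that 0.865% of autosomal positions reached. The largest difference beyond 10 Mb over all pairs, −0.57, lay 1 pair before this edge, between 96123858 and 96197301, and was reached at 0.625% of positions. In stronger pairs it fell only from 0.29 to 0.17 (−0.12, reached at 9.33% of positions), across 4434 kb without a stronger pair. With 40 pairs on each side the difference was −0.04. The pair before this edge had pileups of 21 fragments in WT and 17 in ZNF143KO and the pair after it 12 and 21, so both were near the low end of the lists.

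**Figure D4:**
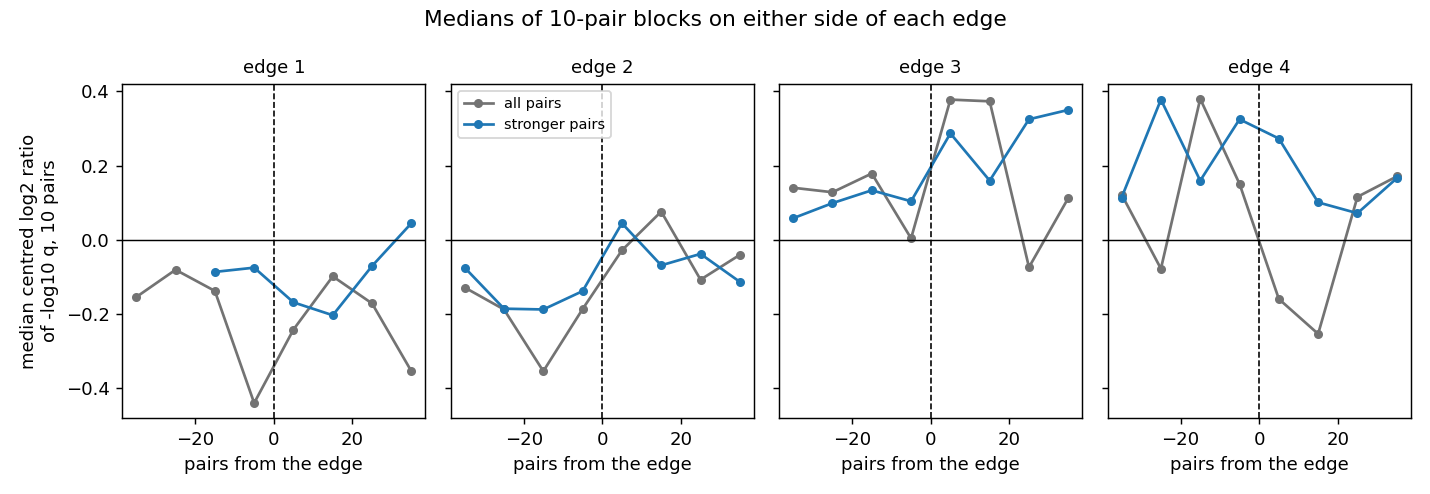
Medians of successive blocks of 10 pairs (y axis, centred log2 ratio of −log10 q) against distance from each edge in pairs (x axis; 1 panel per edge), for all pairs (grey) and for stronger pairs only (blue); blocks reaching below 10 Mb are left out. The grey line drops at edge 4 and is below 0 for 2 blocks before returning above it, while the blue line stays above 0 on both sides.

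Over all pairs, a step placed at the edge left a larger mean absolute deviation than a straight line at edges 1, 2 and 4 and a slightly smaller one at edge 3. Over all pairs of segments 1 and 2, the mean absolute deviation was 0.386 around 1 level, 0.376 with a step at edge 1 and 0.371 along a line. For segments 2 and 3 the values were 0.3594, 0.3525 and 0.3519. They were 0.386, 0.377 and 0.378 for segments 3 and 4, and 0.433, 0.427 and 0.423 for segments 4 and 5. When the step could lie anywhere, it came to lie away from the edge each time: 8.65 Mb before edge 1, 24.5 Mb beyond edge 2, 8.69 Mb before edge 3 and 28.8 Mb beyond edge 4. The deviations left by that step were 0.370, 0.3501, 0.372 and 0.415, each below that along the line. Its position was picked to make the deviation smallest, so these values do not decide between a step and a slope. The search from edges 2 and 3 ended at the same position, between 68519282 and 68608083. Among stronger pairs the deviations with a step at the edge and along a line were 0.139 and 0.139 at edge 1, 0.171 and 0.168 at edge 2, 0.176 and 0.181 at edge 3, and 0.194 and 0.184 at edge 4. Among these, only at edge 3 was the deviation lower with the step than along the line beyond the third decimal. A step free to lie anywhere left 0.138, 0.163, 0.172 and 0.173 in stronger pairs, again below the line each time.

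Over all pairs the largest difference beyond 10 Mb was the one beside edge 4. The next largest lay in segment 3, between 57103808 and 57227897, and at none of the 4 edges. There the median of 20 pairs fell from 0.38 to −0.13, a difference of −0.50 reached at 0.951% of autosomal positions. In stronger pairs the nearby fall, between 51591345 and 57102499, was smaller, from 0.04 to −0.13 (reached at 2.97% of positions). In stronger pairs the largest 2 lay at none of the 4 edges. They were chosen after the values were seen and are given as a description. One lay between the pairs ending at 122932844 and starting at 122933399, where the median of 20 pairs fell from 0.20 to −0.15. A difference of that size was found at 0.557% of autosomal positions in stronger pairs. The other lay between 68519282 and 68608083, where the median rose from −0.13 to 0.11, a size reached at 1.32% of positions.

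Divided at these positions, the stronger pairs formed 3 stretches. From 10314906 to 68519282 the median was −0.08 over 226 pairs, with 153 below 0. From 68608083 to 122932844 it was 0.18 over 134 pairs, with 19 below 0 and 115 above. From 122933399 to 134202594 it was −0.14 over 23 pairs, with 17 below 0. Among stronger autosomal pairs 47.3% were below 0. The stretches were cut at large differences in these same ratios, so one-sided counts within them follow in part from the cut. Segment 4 remained the highest part of the middle stretch, with a median of 0.31 between 0.11 before it and 0.18 after it. The fold medians of these stretches in stronger pairs were −0.01, −0.02 and −0.04.

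At the later position, 2 peaks less than 1 kb apart fell on opposite sides of 0. The peak at 122931933 to 122932844 had pileups of 337 and 704 fragments (0.28 in −log10 q), and the peak at 122933399 to 122934355 had 379 and 662 (−0.16). The next stronger pair, at 123611512 to 123612835, had 363 and 549 fragments (−0.40), but the following stronger pairs, at 124492302 and 124543046, were above 0 (0.07 and 0.23). At the earlier position the peak at 68518662 to 68519282 had 191 and 284 fragments (−0.36) and the peak at 68608083 to 68609593 had 268 and 611 (0.45). Pairs on each side of both positions overlapped in their ratios.

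The start of the stretch was set at 10 Mb. The last pair before it, at 9779834 to 9780056, had 14 fragments in WT and 20 in ZNF143KO (−0.85), near the low end of the lists. The last stronger pair before it, at 9595233 to 9596727, had 389 and 507 fragments (−0.45). The first pair inside, at 10314906 to 10316452, had 464 and 881 (−0.02).

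Peak presence was compared by overlap, a measure that the segment choice did not use, though a peak's chance of being called depends on its pileup. Of the WT peaks, 6 of 83, 6 of 59, 16 of 441, 1 of 74 and 14 of 203 had no ZNF143KO peak over them in segments 1 to 5, against 5.56% of WT peaks on the autosomes. As shares these were 7.23% (2.70 to 15.1), 10.2% (3.82 to 20.8), 3.63% (2.09 to 5.83), 1.35% (0.0342 to 7.30) and 6.90% (3.82 to 11.3). All 5 intervals contained the autosomal share. Of the ZNF143KO peaks, 5 of 78, 4 of 56, 39 of 433, 8 of 73 and 26 of 210 had no WT peak under them, against 9.61% on the autosomes. Those shares were 6.41% (2.11 to 14.3), 7.14% (1.98 to 17.3), 9.01% (6.48 to 12.1), 10.96% (4.85 to 20.5) and 12.4% (8.25 to 17.6), and again each interval contained the autosomal share.

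The highest WT-only share, in segment 2, rested on 6 peaks and the lowest, in segment 4, on 1 peak. This order turned round when a reciprocal overlap of 50% was required, with 13.6% in segment 2 and 25.7% in segment 4. No autosomal share under that rule is given here, so these values have no background to be read against. At an overlap of 1 bp the ZNF143KO-only share was lowest in segment 1 and highest in segment 5. With the counts at 1 bp no segment could be told from the autosomal share beyond counting error.

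**Figure D5:**
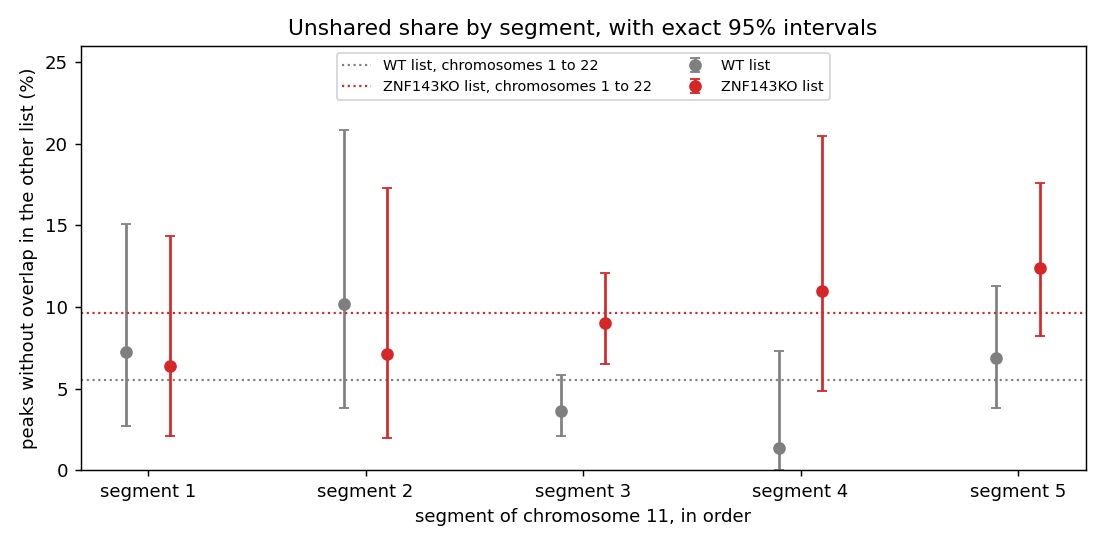
Share of peaks with no overlapping peak in the other list (y axis, percent) in segments 1 to 5 (x axis), with exact 95% intervals; dotted lines give the shares over chromosomes 1 to 22, 5.56% for WT and 9.61% for ZNF143KO. The WT share is above the ZNF143KO share in segments 1 and 2 and below it in segments 3, 4 and 5, and every interval includes its dotted line.

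Unshared peaks were weak. Their median −log10 q was between 4.30 and 9.18 in the WT segments and between 7.21 and 14.6 in the ZNF143KO segments, against 131 or more for shared peaks in every segment of either list. The strongest were in ZNF143KO: a 415 bp peak at 61890815 to 61891229 in segment 3 with a −log10 q of 88.0 and 261 fragments, and a 393 bp peak at 77706099 to 77706491 in segment 4 with 85.02 and 225 fragments. The strongest WT-only peak, at 46450704 to 46450866 in segment 3, had a −log10 q of 24.8 and 28 fragments. Some peaks were neither unshared nor one-to-one: 52 ZNF143KO peaks overlapped several WT peaks, 32 of them in segment 3, whereas 4 WT peaks overlapped several ZNF143KO peaks.

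Within one-to-one pairs, ZNF143KO peaks were wider by a similar factor in every segment, while the list medians differed more. Median widths in WT were 948, 1034, 832, 920 and 861 bp in segments 1 to 5, and in ZNF143KO 1124, 1214, 978, 1213 and 955 bp. In one-to-one pairs the median width ratio was 1.07 in segments 1, 3, 4 and 5 and 1.05 in segment 2. The ZNF143KO peak was the wider in 53 of 66, 34 of 51, 302 of 358, 50 of 57 and 148 of 176 pairs, against 82.1% of autosomal pairs. Segment 2, the lowest in ratio, also had the smallest share of wider peaks. In stronger pairs, however, its median width ratio was not the lowest. It was 1.062, against 1.057, 1.057, 1.072 and 1.049 in segments 1, 3, 4 and 5. The widest WT peak of all segments, at 101980632 to 101983191 in segment 5, measured 2560 bp and its partner 2603 bp.

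ZNF143KO peaks covered more bases in every segment. WT peaks covered 78.9, 61.2, 391, 72.2 and 180 kb of segments 1 to 5, and ZNF143KO peaks 84.7, 64.0, 442, 80.2 and 202 kb. The ratios were 1.07, 1.05, 1.13, 1.11 and 1.13, with 1.11 over the autosomes. Since each list was called separately, these sums move with how much was called. The mean −log10 q per peak was 140, 156, 164, 139 and 146 in WT and 244, 256, 290, 298 and 267 in ZNF143KO. Segments 1 and 2 thus had both the smaller ratios of covered bases and the lower mean values in ZNF143KO.

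Segments of like peak density could differ in ratio. Per Mb, segments 1 to 5 held 4.83, 3.49, 13.3, 3.92 and 5.34 WT peaks and 4.53, 3.31, 13.04, 3.86 and 5.53 ZNF143KO peaks. The median number of WT peaks within 1 Mb of a pair was 10 in segment 2 and 12 in segment 4, against 22 on the autosomes, and these peak-poor segments were the lowest and the highest in ratio. Over the autosomes the median centred log2 ratio was −0.03 for pairs with up to 13 such WT peaks and 0.05 for pairs with more than 41. Within segment 3 the same groups had medians of 0.37 (23 pairs) and −0.07 (196 pairs), and within segment 5 of 0.06 (64 pairs) and 0.27 (38 pairs). In segment 5 the lowest median, −0.15, was that of 10 pairs with more than 22 and up to 41 such peaks. The medians of the density groups thus differed within segments 3 and 5 and in opposite directions, and the part of density in the segment levels was not tested. Segment 3 also held high ratios close to the peak-free stretch that spans the centromere, with the fall from 0.38 to −0.13 between 57103808 and 57227897. How many of its 23 peak-poor pairs lay there was not tested. Their median of 0.37 therefore does not separate density from position.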

How the data were processed

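H3K4me3 ChIP-seq peak lists from 1 WT and 1 ZNF143KO library of HEC-1-B cells were used. Bowtie2, MACS2, SAMtools 1.12, deepTools and the hg19 (GRCh37) build were used upstream, per the submitters' processing notes. The control library, calling thresholds and duplicate handling are not given in the sources used here. Each deposited list had 10 columns in narrowPeak layout. The deposited column 7 was taken as the fold of summit pileup over a local rate, and the deposited column 8 as a −log10 p-value and column 9 as a −log10 q-value. All are the authors' own values, and no scaling between lists is stated.

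From columns 7 and 8, a whole-number summit pileup and a local rate were solved for each peak, which returned column 8 to within a relative error of 1.76e-05 (WT) and 2.67e-05 (ZNF143KO). This was tested on simulated data. Peaks overlapping by at least 1 bp were called shared, and 2 peaks that overlapped only each other made a one-to-one pair. The log2 ratio of ZNF143KO to WT was centred by subtracting the median over chromosomes 1 to 22. Segment edges were examined with the medians of the 20 pairs on either side, and with the mean absolute deviation left by 1 level, 1 step or a straight line. Intervals cover 95%: exact Clopper-Pearson for shares, binomial order statistics for medians. They cover counting error or the spread between pairs only. Because each genotype had 1 library, the genotypes were described and not tested. Sequencing depth in reads was not analysed here.

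Peaks were named by rule: in each segment the 2 highest and 2 lowest pairs by centred ratio among stronger pairs, the pair of highest WT −log10 q, the widest WT peak, the unshared peak of highest −log10 q in each list, and the last pair before and first pair after each edge and the 10 Mb start. The members, segments, rules and alternatives were chosen with earlier results of these data known. Calculations ran in Python 3.11.15 with scipy 1.17.1, pandas 2.3.3 and numpy 2.4.6, and plots were drawn with matplotlib 3.10.9. Alternatives covered the column used, the pairs kept, the overlap rule, the centring and the window at edges. No hg19 annotation or sequence was used here, so peaks carry coordinates and no gene names.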

Additional observations from a re-analysis of the deposited data

How the results depend on the processing

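No paired analysis was possible because a single library stood for WT and a single one for ZNF143KO. With fold in place of −log10 q, the median log2 ratio of segments 1, 2 and 4 changed sign, to 0.028, 0.0043 and −0.039, that of segment 5 was −0.0097, and the difference was 0.013 at edge 3 and −0.0036 at edge 4. With the recovered local rate, an alternative added after the data were seen, it was −0.14 in segment 1, −0.31 in segment 2 and −0.13 at edge 4. The edge 4 difference was −0.12 in stronger pairs and −0.035 with 40 pairs on each side. Under a reciprocal overlap of 50%, the unshared share of WT peaks was 15.7%, 13.6%, 15.9%, 25.7% and 13.3% in segments 1 to 5, and that of ZNF143KO peaks 14.3% in segment 3 and 24.7% in segment 4. With peaks below a −log10 q of 5 left out the unshared share was 2.66% of WT peaks in segment 5. It was 6.24% of ZNF143KO peaks in segment 3 with a peak within 1 kb counted as shared. No autosomal shares under these alternative rules are given here, so these shares have no background. Width ratios in stronger pairs were 1.06 in segment 3 and 1.05 in segment 5. The cause of these shifts was not tested. The other 44 of 50 alternative segment medians and 35 of 40 alternative edge differences did not move beyond the spread between pairs. Covered-base ratios lay between 1.041 and 1.132 in their 15 alternatives. Other limits are 1 library per genotype, unequal depth, with the lowest local rate 2.31 times higher in ZNF143KO, and summit pileups of 7 fragments at the lowest.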
